A study of Mus musculus with 2 samples.

Results

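Trem2, Cd9, Lpl, Spp1, Gpnmb, Fabp4, Fabp5, Cd36, Lgals3 and Plin2 are genes commonly used to mark lipid-associated macrophages. They were found by gene symbol in the deposited count matrices, where they make up 10 of 28692 genes, and each symbol was present. The data are single-cell RNA sequencing of CD45+ leukocytes resident in adipose tissue of wild-type C57BL/6 mice. One library came from mice on control chow and the other from mice on a ketogenic diet, with 1 week of feeding, and intravenous labelling had been used to identify tissue-resident cells. The labels call the samples adult, and do not give an age in weeks or the number of mice per library. Each diet has 1 library, so no test between diets was made: every interval below covers counting error only, and diet, animal and library cannot be told apart.

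Lipid-associated macrophages are macrophages that gather where fat cells are stressed or dying in expanding adipose tissue. They take up lipid, break it down in lysosomes and store the excess in lipid droplets, and the lipid-sensing receptor encoded by Trem2 is needed for much of this program. The same genes are also used singly by other cells, such as endothelial cells and fat cells for Fabp4 and Cd36, so their levels have to be read cell type by cell type.

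The chow library held 4545 cells and 21570910 unique molecular identifiers (UMIs, which count captured transcripts), and the ketogenic diet library 5614 cells and 26041785 UMIs. The authors' deposited table placed 10017 of the cells in 13 clusters, and 41 cell barcodes occurred in both libraries. Cluster 3 is called macrophage-like because 9 of 10 macrophage markers were raised there, although 6 of 7 monocyte markers were raised too. It held 859 chow cells (19.3% of clustered cells) and 145 ketogenic diet cells (2.61%). Cluster 8, led by Retnla, Fcrls, Lyz1 and Ear2, had 2 of 10 macrophage markers raised and stays unnamed; it held 362 chow cells (8.12%) and 47 ketogenic diet cells (0.845%). Lyz2, a lysozyme gene of myeloid cells, had a UMI in 71.8% of chow and 23.5% of ketogenic diet cells of NK-like cluster 1, and low levels of a member outside myeloid clusters are given beside it. Free RNA in droplets, which can place such UMIs in other cells, was not measured.

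Levels are given as CPM, the UMIs of a gene per 1000000 UMIs of the cells summed, with an exact Poisson 95% interval. The 10 genes did not share a single distribution over the clusters. Trem2 and Plin2 were highest in cluster 3, Lpl in cluster 8, Cd9 in cDC1-like cluster 6 and Fabp5 in mature DC-like cluster 12, in both libraries. The name of the list therefore describes how these genes are used elsewhere, and no cluster here is called lipid-associated macrophages from it.

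**Figure D1:**
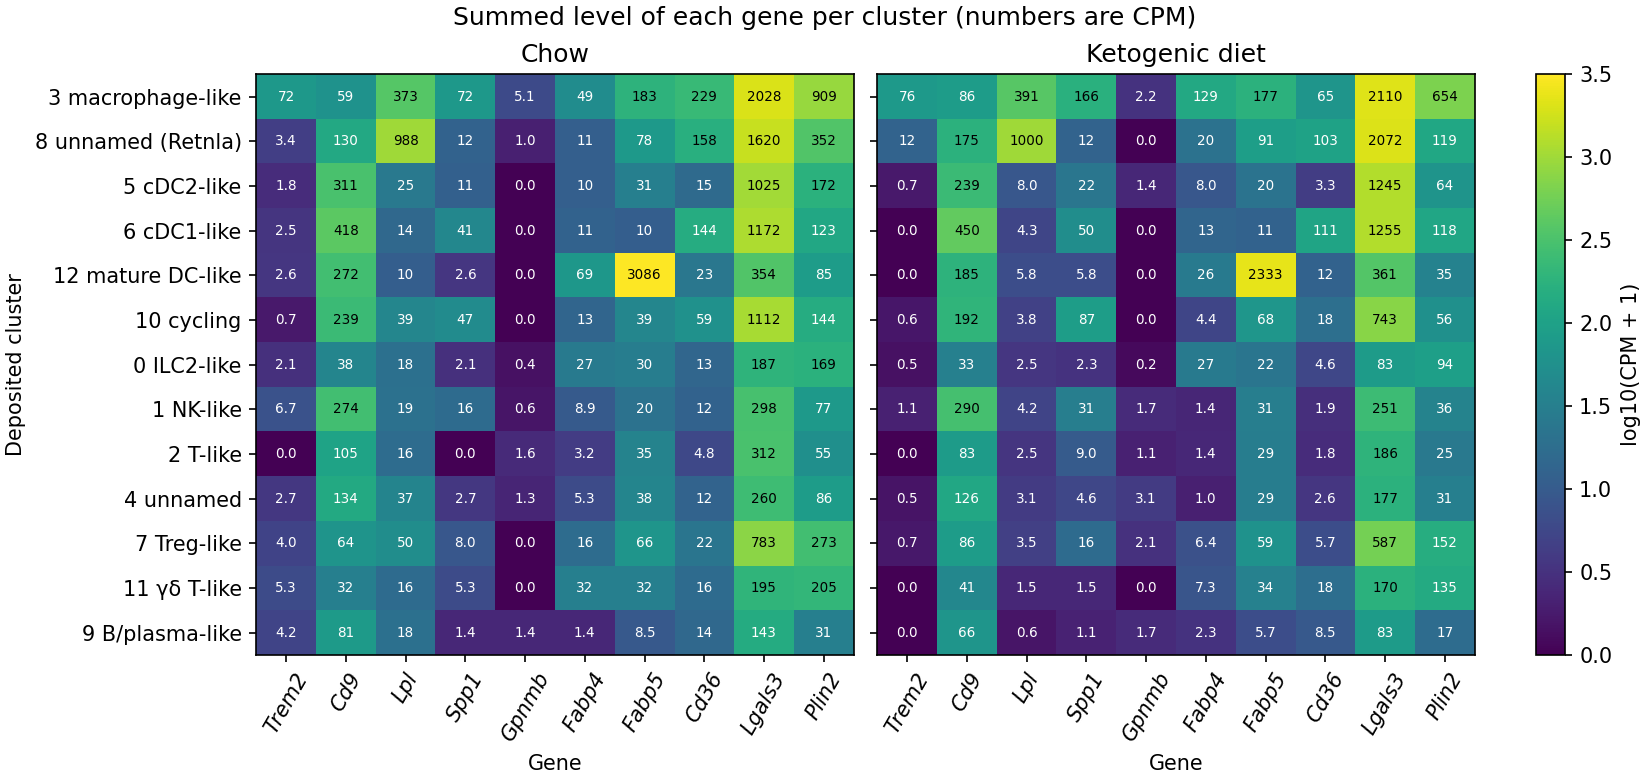
Summed level of each of the 10 genes (columns) in each deposited cluster (rows) for the chow and ketogenic diet libraries, coloured by log10(CPM + 1) with the CPM printed in each cell. Trem2 was at 72.5 and 76.1 CPM in cluster 3 and at most 11.9 CPM elsewhere, whereas Fabp5 reached 3086 and 2333 CPM in cluster 12.

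Trem2 encodes the lipid-binding receptor that gives the program its best-known marker. It is annotated on the plus strand at chr17:48346401-48354147 (GRCm38, the build also called mm10). Its level in cluster 3 was 72.5 CPM (65.2 to 80.3) in chow and 76.1 CPM (59.1 to 96.5) under the ketogenic diet. Cluster 3 held 368 of 415 Trem2 UMIs in chow (88.7%) and 68 of 82 under the ketogenic diet (82.9%). The next cluster in order was at 6.67 CPM in chow and 11.9 CPM under the ketogenic diet, and below the first place the intervals of neighbours overlapped. The log2 ratio of ketogenic diet to chow in cluster 3 was 0.08, with a 95% interval of the ratio from 0.799 to 1.36, which includes 1.

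Few cells carried a Trem2 UMI at any one depth. After each cell was thinned to 1000 UMIs, 6.64% of chow and 6.90% of ketogenic diet cells in cluster 3 had one (24.8% and 27.6% unthinned). In NK-like cluster 1, which should lack the gene, the thinned shares were 0.414% and 0.0942%. Median depths were 5543 and 5589 UMIs in cluster 3 against 2296.5 and 3147 in cluster 1. Chow cells of cluster 3 with a Trem2 UMI also had a UMI of Fabp5 more often than the rest (18.4% against 9.88%, thinned), and of Lpl (27.0% against 18.3%). For Cd36 the shares were 19.0% and 17.3%, and for Cd9 6.79% and 4.90%. In the ketogenic diet library, with about 10 cells expected to keep a Trem2 UMI, the shares were 12.9% against 10.99% for Fabp5 and 24.0% against 19.3% for Lpl. The other way, they were 4.39% against 7.61% for Cd9 and 5.70% against 6.35% for Cd36. These differences were not tested.

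Cd9 encodes a tetraspanin, a membrane protein that organises other proteins at the cell surface, and lies on the minus strand at chr6:125460266-125494791. Its level was highest in cDC1-like cluster 6, at 418 CPM (393 to 445) in chow and 450 CPM (428 to 473) under the ketogenic diet. NK-like cluster 1 was at 274 and 290 CPM. Macrophage-like cluster 3 was lower than both, at 59.3 and 86.2 CPM in the same order, and its log2 ratio of ketogenic diet to chow was 0.55 (ratio interval 1.12 to 1.87). Cells of cluster 3 with both a Trem2 and a Cd9 UMI, the surface pair often used to sort lipid-associated macrophages, numbered 50 of 859 in chow (5.82%) and 8 of 145 under the ketogenic diet (5.52%). Singly, 24.8% and 27.6% of these cluster 3 cells had a Trem2 UMI and 18.6% and 23.4% a Cd9 UMI, unthinned. Whether the pair met more often than the single shares would give was not tested. Thinned to 1000 UMIs, about 4 chow cells and fewer than 1 ketogenic diet cell were expected to keep both, so the pair was hardly detectable at that depth.

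Cd36 encodes a scavenger receptor that imports long-chain fatty acids and oxidised lipoproteins, and its gene spans chr5:17781690-17888801 on the minus strand. In chow it was highest in cluster 3 at 229 CPM (216 to 243), followed by cluster 8 at 158 CPM and cluster 6 at 144 CPM. Under the ketogenic diet the corresponding values were 64.9, 103 and 111 CPM, and the interval of cluster 3 (49.3 to 84.0) lay below that of cluster 6 and overlapped that of cluster 8. The log2 ratio in cluster 3 was -1.81, which is 3.53-fold lower under the ketogenic diet (interval 2.71 to 4.67). It was -0.59 in cluster 8 and -0.38 in cluster 6. Cd36 was lower under the ketogenic diet in 8 of 8 clusters with at least 20 UMIs, and the ratio's interval lay below 1 in 7 of them. Cd36 was low in the lymphoid clusters among these: in chow NK-like cells there were 1.39 Cd36 UMIs per 100 Lyz2 UMIs, beside 1.25 in clusters 3 and 8, and in ILC2-like cells 2.47. Under the ketogenic diet the values were 1.67 in NK-like and 4.21 in ILC2-like cells, beside 0.373 in clusters 3 and 8. Lyz2 itself was lower in NK-like cells under the ketogenic diet (843 and 116 CPM). The part of free RNA in those lymphoid differences was not tested. The thinned share of cluster 3 cells with a Cd36 UMI was 17.3% in chow and 6.21% in the other library (46.7% and 19.3% without thinning), compared with 1.10% and 0.188% in NK-like cells.

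Lpl encodes lipoprotein lipase, the enzyme that frees fatty acids from circulating triglyceride, and lies on the plus strand at chr8:68880491-68907448. It was among the genes leading cluster 8, so its height there describes the cluster. Its levels were 988 CPM (952 to 1025) in chow and 1000 CPM (881 to 1132) under the ketogenic diet in cluster 8. In cluster 3 they were 373 and 391 CPM. The log2 ratios of 0.02 and 0.07 were close to 0, with ratio intervals of 0.886 to 1.15 and 0.932 to 1.17. Clusters 3 and 8 held 94.0% of Lpl UMIs in chow and 86.8% under the ketogenic diet.

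Outside those clusters Lpl was low. It was lower under the ketogenic diet in 7 of 9 clusters with at least 20 UMIs, and clusters 3 and 8 were the other two. In chow there were 3.66 Lpl UMIs per 100 Lyz2 UMIs in clusters 3 and 8 together, 3.40 in ILC2-like, 2.24 in NK-like and 3.81 in Treg-like cells. In Treg-like cells 1 chow cell held 13 of the 25 Lpl UMIs and 1 ketogenic diet cell 4 of 5. The part of free RNA in the lymphoid Lpl levels was not tested.

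Fabp4 and Fabp5 encode small proteins that carry fatty acids inside the cell, and both genes lie on chromosome 3, at chr3:10204088-10208576 (minus strand) and chr3:10012548-10016607 (plus strand). Fabp5 was among the leading genes of mature DC-like cluster 12, at 3086 CPM in chow and 2333 CPM under the ketogenic diet. In cluster 3 it was at 183 CPM (171 to 195) and 177 CPM (150 to 207), a log2 ratio of -0.04.

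Fabp4 was at 49.0 CPM (43.1 to 55.5) in chow and 128.8 CPM (106 to 155) in the ketogenic diet library in cluster 3, a log2 ratio of 1.40. Single cells carried much of that total. One ketogenic diet cell held 53 of the 115 Fabp4 UMIs of the cluster; it had 2952 UMIs in all, 12 of them from 5 of 8 endothelial markers, and 0 from Lyz2 or the C1q genes. A second held 33. The log2 ratio was 0.61 without the richest cell of each library and -0.37 without the richest 2, so its direction rested on those cells. All 8 endothelial markers were detected in cluster 3 in chow and 5 of 8 under the ketogenic diet (Gpihbp1, Cldn5 and Kdr were at 0), with summed levels of 23.0 and 30.2 CPM. The thinned share of cluster 3 cells with a Fabp4 UMI was 4.07% in chow and 4.14% (6 of 145 cells) under the ketogenic diet. Without thinning the Fabp4 shares were 14.3% and 9.66%.

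Fabp4 was also found in ILC2-like cluster 0, at 26.9 CPM (20.7 to 34.4) in chow and 27.1 CPM (22.4 to 32.4) under the ketogenic diet. A Fabp4 UMI was present in 2.46% and 2.44% of those cells after thinning (6.67% and 6.95% unthinned), against 0.967% and 0.188% of NK-like cells, with median depths of 2610.5 and 3133 UMIs in cluster 0. There were 4.95 Fabp4 UMIs per 100 Lyz2 UMIs in chow ILC2-like cells and 0.215 in clusters 3 and 8. Endothelial markers summed to 17.2 and 18.4 CPM in cluster 0, and the part of endothelial or free RNA in the Fabp4 level was not tested.

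Spp1 encodes osteopontin, a secreted matrix protein that attracts macrophages and lies at chr5:104435118-104441050 on the plus strand. Its level in cluster 3 was 72.5 CPM in chow and 165.7 CPM in the ketogenic diet library, so 2.29-fold higher there. One ketogenic diet cell held 91 of the 148 Spp1 UMIs, and without the richest cell of each library the log2 ratio was -0.042, so the direction rested on that cell. The thinned share of cells with a Spp1 UMI was 4.19% in chow and 4.14% under the ketogenic diet. Without thinning the Spp1 shares were 11.6% and 12.4%. Across 8 clusters with at least 20 UMIs Spp1 was lower in 0, and the interval lay above 1 in 5, cluster 3 among them. Single ketogenic diet cells also held 36 of 110 Spp1 UMIs in NK-like cluster 1, 10 of 25 in T-like cluster 2 and 65 of 138 in cycling cluster 10. The share of cells with a Spp1 UMI was 2.76% in chow and 2.64% under the ketogenic diet in cluster 1, and 21.1% and 20.1% in cluster 10 (unthinned). In cDC2-like cluster 5, where no single cell dominated, Spp1 had 24 UMIs in chow and 62 under the ketogenic diet (10.9 and 22.4 CPM, ratio interval 1.27 to 3.45). There the richest ketogenic diet cell held 12.9% of them, and 4.07% of chow and 9.497% of ketogenic diet cells had a UMI, unthinned. Median depths in cluster 5 were 6352.5 UMIs in chow and 7722.5 under the ketogenic diet. The thinned shares were 1.16% (0.318 to 2.95%) and 1.96% (0.790 to 3.99%), with overlapping intervals. Spp1 in cluster 5 was also under the minimum of UMIs needed to be counted as changed. The log2 ratio in cluster 10 was 0.87, and between 0.25 and 0.92 under the alternatives tried.

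Gpnmb encodes a membrane glycoprotein of lysosome-rich macrophages, on the plus strand at chr6:49036546-49070929. It was nearly undetected, with 62 UMIs in all clustered cells. In cluster 3 there were 26 UMIs in chow and 2 under the ketogenic diet, 5.12 and 2.24 CPM, and the interval of the ratio ran from 0.0503 to 1.75. It was the 1 member under the minimum of 100 UMIs in cluster 3.

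Lgals3 encodes galectin-3, a sugar-binding protein abundant in macrophages, on the plus strand at chr14:47367751-47386160. It was present in every cluster, and in cluster 3 it was at 2028 CPM in chow and 2110 CPM with the ketogenic diet (log2 ratio 0.06, ratio interval 0.990 to 1.09). In cluster 8 it was at 1620 and 2072 CPM, a log2 ratio of 0.36. One ketogenic diet cell held 79 of the 522 Lgals3 UMIs there, and the log2 ratio was between 0.17 and 0.42 under the alternatives tried. Cluster 3 was the highest in chow, and under the ketogenic diet the intervals of clusters 3 and 8 overlapped.

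Plin2 encodes perilipin 2, the protein that coats lipid droplets and rises with the lipid a cell stores; the gene is on the minus strand at chr4:86648386-86670060. In cluster 3 it was at 909 CPM in chow and 654 CPM in the ketogenic diet library, with a log2 ratio of -0.47 (ratio interval 0.659 to 0.784). In cluster 8 it was at 352 and 119 CPM, a log2 ratio of -1.54, or 2.96-fold lower (interval 2.06 to 4.40). The thinned share of cells with a Plin2 UMI was 55.2% in chow and 35.2% under the ketogenic diet in cluster 3, and 27.9% and 10.6% in cluster 8 (94.4% and 77.2%, and 82.6% and 44.7%, unthinned), against 7.18% and 3.39% in NK-like cells. Median depth in cluster 8 was 7938.5 UMIs in chow and 4581 under the ketogenic diet.

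Plin2 was lower under the ketogenic diet in 13 of 13 clusters, and the interval of the ratio lay below 1 in 12. The exception was cDC1-like cluster 6, at 123 and 118 CPM (log2 ratio -0.06). That ratio turned to 0.31 when an assumed 10% of UMIs, with the profile of all cells of the library, was subtracted as free RNA. Over all clustered cells Plin2 was at 346 CPM in chow and 89.2 CPM under the ketogenic diet. The subtraction therefore took more from chow and raised the ratio by construction, so it cannot decide the direction. Treg-like cells had 273 CPM in chow and 152 CPM under the ketogenic diet, and ILC2-like cells 169 and 93.8 CPM. In chow there were 4.33 Plin2 UMIs per 100 Lyz2 UMIs in clusters 3 and 8, 31.2 in ILC2-like and 20.7 in Treg-like cells. Lyz2 was lower under the ketogenic diet in the ILC2-like and Treg-like cells as well, and the part of free RNA in the lymphoid difference was not tested.

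**Figure D2:**
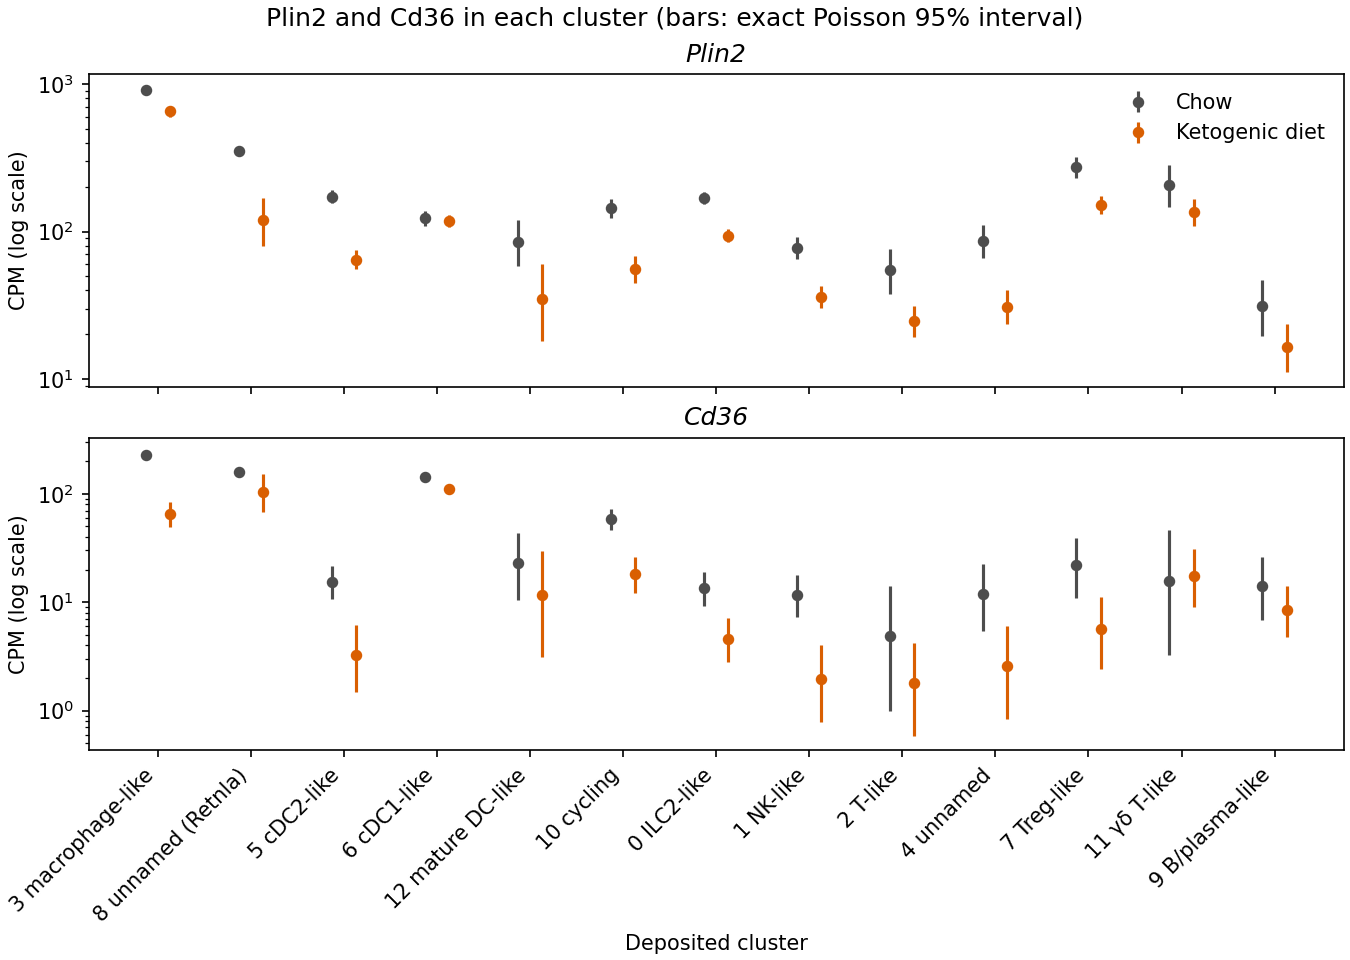
Level of Plin2 (top) and Cd36 (bottom) in CPM on a log axis in each deposited cluster, with grey points for chow, orange points for the ketogenic diet and bars for exact Poisson 95% intervals. Plin2 was lower under the ketogenic diet in 12 of 13 clusters with an interval below 1 and nearly level in cDC1-like cluster 6. Cd36 in cluster 3 went from 229 to 64.9 CPM.

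Since Plin2 and Cd36 were lower under the ketogenic diet in every cluster counted (Plin2 in cluster 6 only slightly, and not after subtraction of an assumed share of free RNA), the letters around their starts are shown. Promoter windows from RefSeq (GRCm38.p6), reaching from 250 bases before each start to shortly after it, matched 7 of the 10 genes by symbol; Lpl, Fabp4 and Fabp5 were not matched. Each window was searched on both strands for TCACGTG (an E-box bound by the MITF and TFE family), the PPAR and RXR element of direct repeat type, TGAGTCA (AP-1) and GGAAGT (the PU.1 core). The Plin2 window holds TCACGTG, which 3.77% of 32851 promoters do. It is printed with the motif in capitals, chr4:86670050-86670079 on the minus strand, and the motif begins 5 bases before the start.
Plin2: caggcagctgggctaTCACGTGgctcggag
The Cd36 window holds GGAAGT on the reverse strand (ACTTCC, in capitals below) 176 bases before an annotated start inside the gene, a motif that 23.8% of promoters hold. The 250 bases before that start are chr5:17835897-17836146 on the minus strand.
Cd36: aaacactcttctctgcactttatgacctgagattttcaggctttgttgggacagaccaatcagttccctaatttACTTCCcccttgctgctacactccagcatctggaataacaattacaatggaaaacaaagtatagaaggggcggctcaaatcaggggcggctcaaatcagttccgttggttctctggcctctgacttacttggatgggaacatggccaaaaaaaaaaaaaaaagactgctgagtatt
The PPAR and RXR element was found in 0 of the 8 windows of the 7 genes (Spp1 has 2), and in 0.0396% of all promoters. A match describes the letters only, and binding was not measured here.

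**Figure D3:**
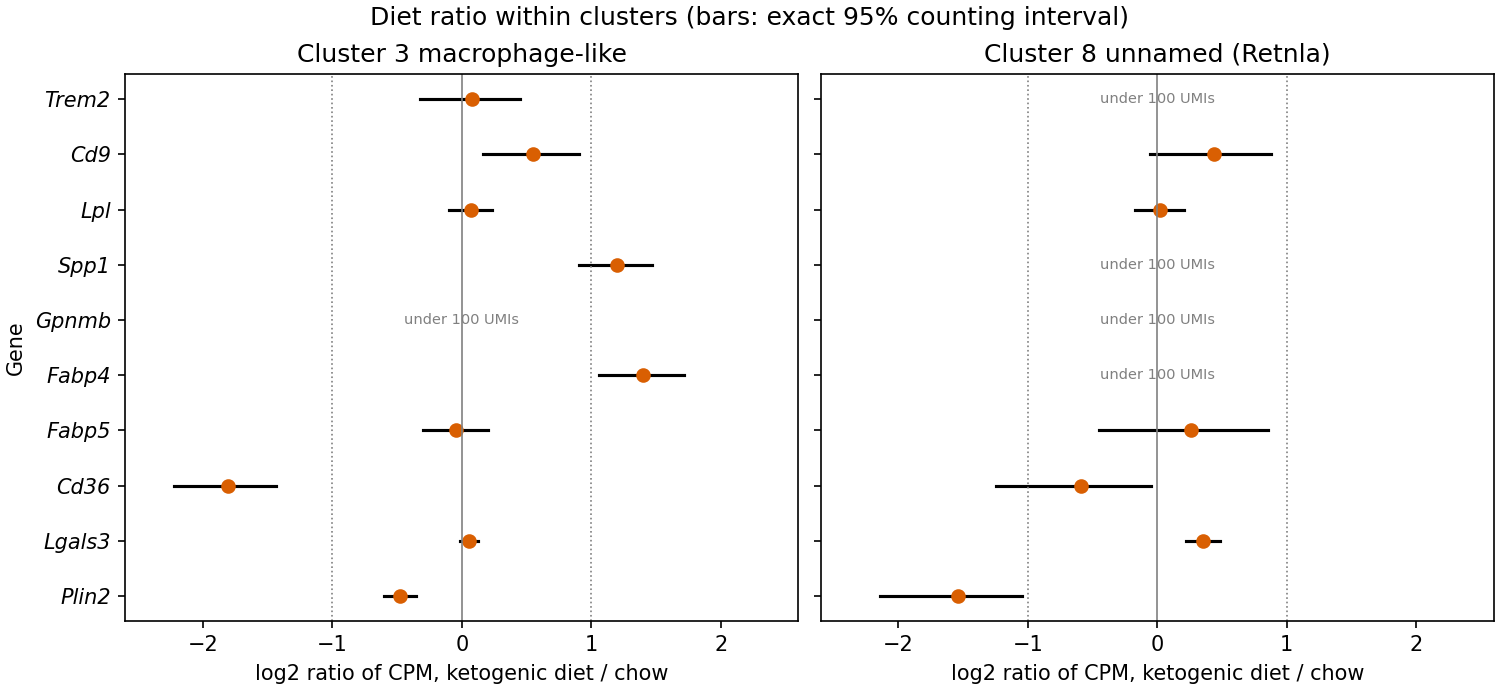
Ketogenic diet level divided by chow level on a log2 scale for each gene in macrophage-like cluster 3 (left) and unnamed cluster 8 (right), with bars for the exact 95% counting interval and dotted lines at a 2-fold change. Cd36 in cluster 3 (-1.81) and Plin2 in cluster 8 (-1.54) lie beyond the lower line, and Spp1 and Fabp4 in cluster 3 beyond the upper one.

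Taking the 9 members with at least 100 UMIs in cluster 3, 2 were at least 2-fold higher under the ketogenic diet (Spp1 and Fabp4), where 2.45% of all 4983 genes at that minimum were, and 1 was at least 2-fold lower (Cd36), where 2.75% were. Their median log2 ratio was 0.07, beside 0.04 for all those genes. In cluster 8, 6 members reached the minimum, 0 were 2-fold higher (0.734% of 3134 genes were) and 1 was 2-fold lower (Plin2; 4.85% of genes were). The count of higher members in cluster 3 was 0 without the richest cell of each library. Markers of neutrophils moved in cluster 3 as well, from 301 CPM in chow (5 of 6 detected, Ly6g at 0) to 58.2 CPM under the ketogenic diet (4 of 6, Retnlg and Ly6g at 0). They were also lower in ILC2-like cluster 0 (116 and 7.11 CPM), cluster 8 (19.9 and 7.94 CPM) and cluster 6 (13.5 and 5.74 CPM). Their part in the Cd36 and Plin2 differences was not tested.

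Over all clustered cells the members differed more between the libraries, and clusters 3 and 8 made up 37.4% of UMIs in chow and 4.43% under the ketogenic diet. Of the 9 members with at least 100 UMIs, 0 were 2-fold higher (4.93% of 10361 genes were) and 4 were 2-fold lower (Trem2, Lpl, Cd36 and Plin2; 5.16% of genes were). Lpl went from 237.8 to 26.8 CPM, 8.89-fold lower, and Trem2 from 19.4 to 3.17 CPM, 6.13-fold lower. With each cluster weighted by its chow share of UMIs, the log2 ratio was -0.04 for Lpl and 0.04 for Trem2, against -3.15 and -2.62 as sampled. For Cd36 and Plin2 the weighted values stayed below 0, at -1.18 and -0.68, against -2.18 and -1.96. The weighted values of Spp1 (0.98) and Fabp4 (0.84) include the single rich ketogenic diet cells of cluster 3. In a tissue-level measure, fewer cells of clusters 3 and 8 and less RNA per cell could not have been told apart for these genes.

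**Figure D4:**
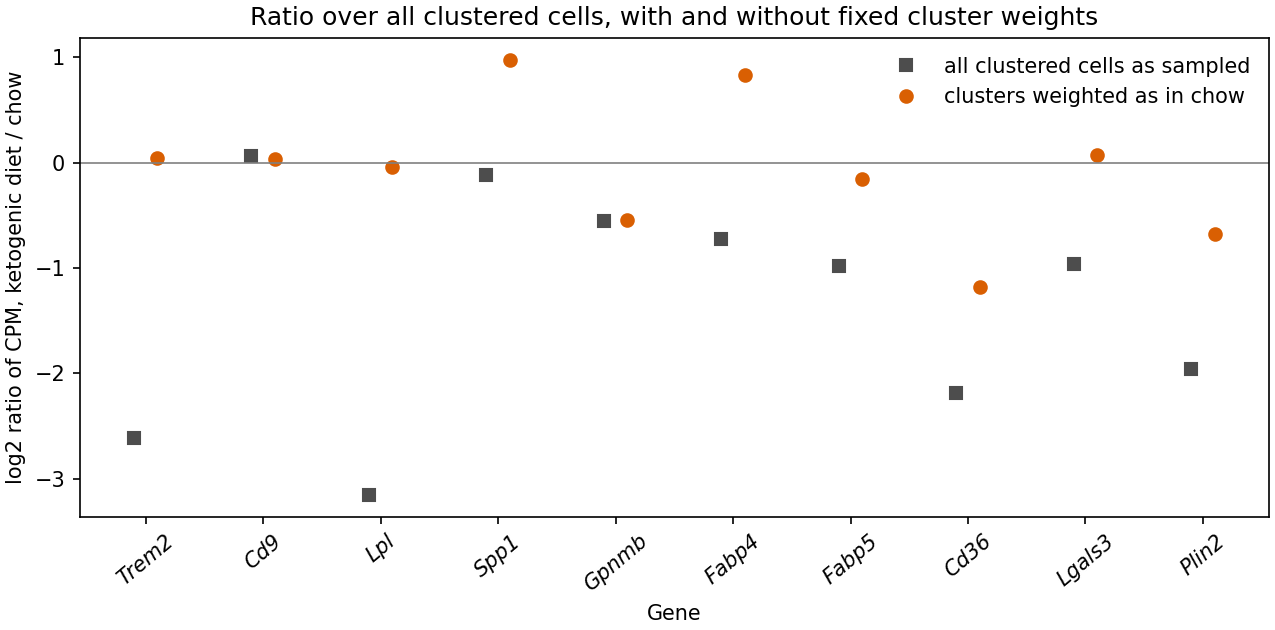
Ketogenic diet level divided by chow level on a log2 scale for each gene over all clustered cells as sampled (grey squares) and with every cluster weighted as in chow (orange circles). Trem2 and Lpl move from -2.62 and -3.15 to close to 0, and Cd36 and Plin2 remain at -1.18 and -0.68.

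Cells carrying most of the list at once were rare. Of 10017 clustered cells, 16 had at least 1 UMI of 8 or more of the 10 genes: 13 of 859 chow cells in cluster 3 (1.51%, exact binomial interval 0.808 to 2.57%), 1 of 145 ketogenic diet cells there (0.690%, 0.0175 to 3.78%), 1 chow cell in cluster 8 and 1 ketogenic diet cell in cluster 6. The intervals of the diets overlap, and cluster 3 cells had similar median depths. Chow cluster 3 held 2 cells with all 10 genes and 1 with 9. The deepest of them, with 9136 UMIs, had 9 Trem2, 6 Gpnmb, 12 Fabp4, 35 Fabp5 and 19 Cd36 UMIs. These 3 cells held 0.462% of the chow UMIs of cluster 3, 46.2% of its Gpnmb UMIs (12 of 26), 9.24% of Fabp4, 7.87% of Fabp5 and 5.16% of Trem2, but 1.28% of Plin2. They were picked for carrying the genes, so these shares are a description.

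**Figure D5:**
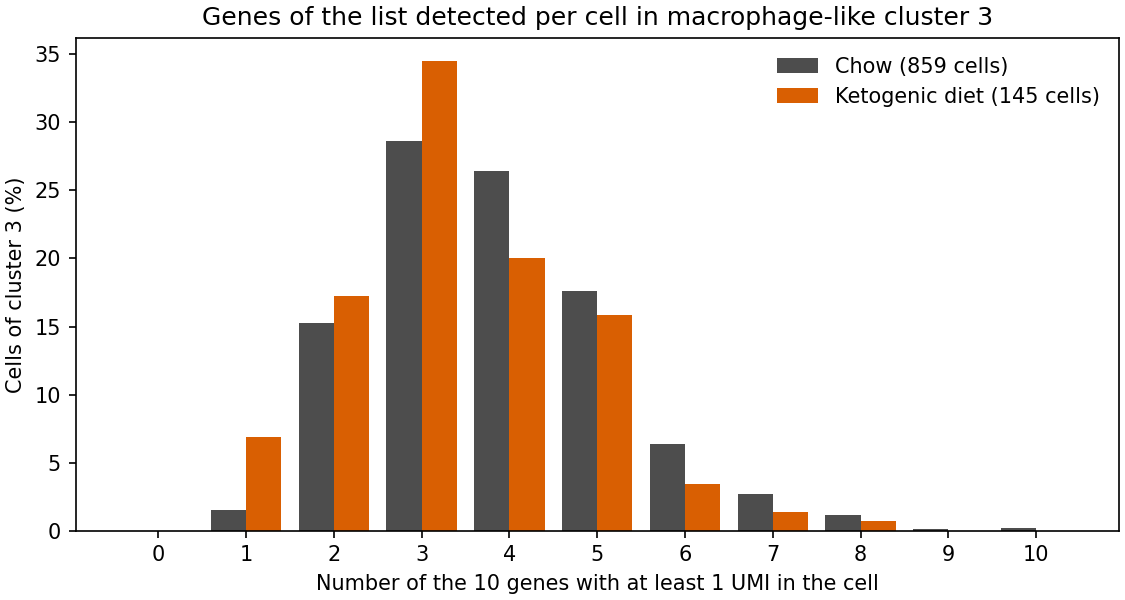
Percent of macrophage-like cluster 3 cells (vertical axis) by the number of the 10 genes with at least 1 UMI in the cell (horizontal axis), for 859 chow cells (grey) and 145 ketogenic diet cells (orange). The median was 4 genes in chow and 3 under the ketogenic diet, and the highest numbers were 10 and 8.

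Cluster 3 was divided by its C1q genes (C1qa, C1qb and C1qc), complement genes of mature resident macrophages, at 2 C1q UMIs per 1000. In chow 203 cells lay above and 656 below, and under the ketogenic diet 17 and 128; 156 chow and 8 ketogenic diet cells lay within 2-fold of the division. Cd36 was lower under the ketogenic diet on both sides, from 287 to 107 CPM above the division (log2 ratio -1.36) and from 209.6 to 58.9 CPM below it (-1.82). Plin2 was lower on both as well, with log2 ratios of -0.74 and -0.43. Lpl went from 341 to 776 CPM above the division (log2 ratio 1.19) and was at -0.19 below it. Trem2 went from 78.1 to 160.6 CPM above it (1.07, ratio interval 1.17 to 3.42) and was at -0.13 below it. For Cd9 the log2 ratios were 1.58 and 0.32. Spp1, Fabp4 and Fabp5 were also higher above the division, and Lgals3 was lower (-0.40). Gpnmb had 10 UMIs there in chow and 0 under the ketogenic diet. With 17 cells, the upper side leaned on 1 or a few: without the richest cell of each library the log2 ratio of Lpl there was 0.61. That of Trem2 was 0.79 (ratio interval 0.861 to 3.02) and that of Cd9 0.93 (0.687 to 4.01), with intervals that include 1.

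The other genes of the program, 36 in all, were taken from a list of lysosomal and phagocytic genes and of lipid handling genes. In cluster 3, 25 of them had at least 100 UMIs, of which 3 were at least 2-fold higher (2.45% of all genes were) and 1 was 2-fold lower (2.75% were), with a median log2 ratio of 0.15. The higher ones included Msr1, a scavenger receptor for modified lipoproteins (80.7 to 222.8 CPM, log2 ratio 1.47), and Abcg1, a cholesterol exporter (17.5 to 43.7 CPM, 1.33). The lower one was Olr1, a receptor for oxidised lipoprotein (30.7 to 12.3 CPM, -1.26). Msr1 and Cd36 both encode scavenger receptors, and in the cluster 3 sums Msr1 was higher and Cd36 lower in the ketogenic diet library. In cluster 8, 17 reached the minimum, 0 were higher (0.734% of genes were) and 1 was lower (4.85% were): Dgat1, which makes triglyceride (34.3 to 11.9 CPM, log2 ratio -1.31), from 3 ketogenic diet UMIs and with a fold interval that includes 1 (0.959 to 14.2). Mmp12, a macrophage elastase, was under the minimum in cluster 8 and is named after its values were seen: it had 30 UMIs in chow and 37 under the ketogenic diet (10.3 and 147 CPM, log2 ratio 3.83, ratio interval 8.57 to 23.9). One ketogenic diet cell held 36 of the 37.

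The genes whose level followed each member most closely over the 26 sums of cluster and library were looked for among 9119 genes, by Pearson's r of log2(CPM + 10). The sums share 2 libraries and the clustering, so r is a description. The closest to Trem2 was C5ar1 (r = 0.97), to Lpl Pilra (0.96), to Lgals3 Alox5ap (0.93), to Fabp5 Anxa3 (0.93) and to Cd36 4930455G09Rik (0.90). For Plin2 it was Arl8a (0.87), for Spp1 Serpinb10 (0.85), for Fabp4 Pygl (0.84), for Cd9 1700025G04Rik (0.81) and for Gpnmb Mpp1 (0.72). Gpnmb had 62 UMIs in all, under the 200 required of the compared genes, so its r rests on very low levels. Between Trem2 and Cd9 themselves r was -0.19.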

How the data were processed

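The authors deposited 1 matrix of raw UMI counts per library (genes by cells, not normalized), and a table giving each cell's cluster number at resolution 0.5. Cell Ranger, Seurat and the mm10 build are named in the submitters' processing notes; versions and settings are not given in the sources used here. Counts were summed per cluster and library with Python 3.11.15, NumPy 2.4.6 and pandas 2.3.3, and expressed as CPM. Poisson, binomial and ratio intervals (95%, exact, SciPy 1.17.1) cover counting error only. Log2 ratios had 0.5 added to each count; a gene needed 100 UMIs over both libraries to be counted as changed at 2-fold. Thinned shares are the exact expected number of cells at 1000 UMIs per cell, rounded to whole cells, so low shares are coarse; no cell fell below that depth. Shares beside a Trem2 UMI are unrounded expectations. The ratio code was tested on simulated data.

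Clusters were named from marker lists. All 10 members, the program list, the 3 most alike genes per member and 4 motifs were set by rule; members and lists were chosen with earlier results of these data known, and the most alike gene of each member is printed. The values of 1 gene of the program list are not reported here. The doublet caller Scrublet (Scanpy 1.11.5) marked 0.132% of chow and 0.0356% of ketogenic diet cells and so had not worked; no cells were removed as doublets. The 142 cells without a cluster entered no cluster sum, and their levels are given separately. Alternative clusters (22, Leiden, resolution 0.5, 30 principal components, 15 neighbours, 2000 variable genes) were computed without the members. Positions are from GENCODE M21 and promoters from RefSeq GRCm38.p6.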

Additional observations from a re-analysis of the deposited data

Results flagged for a closer look

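Some members were higher under the ketogenic diet in some clusters and lower in others, with counting intervals on opposite sides of 1. With 1 library per diet, the difference between clusters was not tested. For Cd9 the log2 ratio was 0.55 in macrophage-like cluster 3, and between 0.28 and 0.71 under the alternatives tried. It was -0.38 in cDC2-like cluster 5, -0.32 in cycling cluster 10 and -0.55 in mature DC-like cluster 12. For Fabp5 it was 0.61 in NK-like cluster 1 and 0.80 in cycling cluster 10, but -0.62 in cluster 5 and -0.40 in cluster 12. For Lgals3 it was 0.28 in cluster 5, 0.10 in cDC1-like cluster 6 and 0.36 in cluster 8 (0.17 to 0.42 under the alternatives tried). In the other clusters of that kind Lgals3 was lower, at -1.18 in ILC2-like cluster 0, -0.25 in cluster 1, -0.75 in T-like cluster 2, -0.55 in cluster 4, -0.42 in Treg-like cluster 7, -0.80 in B and plasma-like cluster 9 and -0.58 in cluster 10. Lyz2 was also lower in these clusters, for example at 544 CPM in chow and 109 CPM under the ketogenic diet in cluster 0, and the part of free RNA in the Lgals3 values was not tested.

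In the 142 cells that the deposited table leaves without a cluster, 4 members were higher in chow with intervals that did not overlap. Lpl was at 274 CPM in chow and 0 CPM under the ketogenic diet, and Cd36 at 76.5 and 0 CPM. Lgals3 was at 688 and 194 CPM, and Plin2 at 256 and 22.8 CPM. Spp1 ran the other way, at 27.0 and 56.9 CPM, and Cd9 was at 175 and 142 CPM, with intervals that overlapped for both. Fabp4 and Fabp5 were higher in chow with overlapping intervals, and Trem2 and Gpnmb had 0 UMIs in both libraries.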

How the results depend on the processing

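No paired analysis was possible because each diet has 1 library and the labels give no replicate numbers that pair samples. Log2 ratios were recomputed under alternatives in clusters 3, 5, 6, 8, 10 and 12, for members with at least 100 UMIs there. The other clusters were not recomputed. Shares of cells in clusters 3 and 8, taken at a greater thinned depth or with at least 2 UMIs required, left their interval in 54 cases and stayed in 26. Of 282 recomputed log2 ratios, 261 stayed inside the original counting interval and 18 changed sign, 3 of them where that interval excluded a ratio of 1. Those 3 were in cluster 3: Spp1, at -0.042 without the top cell of each library and -0.26 without the 2 top cells, and Fabp4, at -0.37 without the 2 top cells. Spp1 was 0.70 as a mean over cells. Fabp4 was 0.61 without the top cells, 0.60 in the computed clusters and 0.52 without cells holding at least 3 endothelial marker UMIs. Plin2 was -0.68 as a mean over cells, and -0.61 and -0.71 without 1 and 2 top cells. Lpl was -0.20 without 2 top cells. The 2 top cells are a larger share of 145 cells than of 859. The number of members 2-fold higher in cluster 3 was 2, and became 1 as a mean over cells, 0 without the top cells, 1 in the computed clusters and 1 without the endothelial-marker cells. Cd36 in cluster 3 ranged from -2.06 to -1.48. In the C1q division, leaving out the top cells turned Spp1 below it to -0.66, Fabp4 above and below it to -1.82 and -0.17, and Fabp5 above it to -0.79. The alternatives without endothelial-marker cells, without cells of very high UMI number, without 2 top cells and without top cells in the C1q division were chosen after seeing the data. Gpnmb had 62 UMIs in all, and cluster 8 had 47 ketogenic diet cells.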
